A study of Caenorhabditis elegans with 4 samples.

Results

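The regions described are the binding sites of T26A5.5 on chromosome V of Caenorhabditis elegans that were found in both replicates of a chromatin immunoprecipitation and sequencing (ChIP-seq) experiment. ChIP-seq recovers the DNA crosslinked to a protein, and places in the genome where such reads pile up are listed as peaks. A peak of the series-wide list was counted as a member if it lay on V and overlapped, by at least 1 bp, a replicate 1 peak and a replicate 2 peak. This left 872 members out of 1812 series-wide peaks on V, and out of 6097 peaks with the same support on all chromosomes. All samples were early embryos of wild-type N2 worms grown at 20 °C, in which males and hermaphrodites were mixed. In 2 samples an antibody against T26A5.5 was used (ChIP), and 2 input samples held the chromatin before it. The series title and its design text name this antibody by different codes, SDQ3838 and SDQ3867. Each of the 3 peak lists gives positions on WormBase WS220 and scores but no read counts, so depth is unknown, and only the ChIP samples have lists of their own. Separate cultures are not stated for the replicates, so differences between them may be technical.

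T26A5.5 carries the gene name jhdm-1, and its mammalian relatives in the KDM2 family are histone demethylases with a JmjC domain that remove methyl groups from lysine 36 of histone H3. The mammalian proteins also have a CXXC zinc finger, which binds CpG dinucleotides without DNA methylation. C. elegans chromosomes are holocentric, that is, the spindle attaches along their whole length. Autosomes are nonetheless divided into a central region, where genes that are widely expressed and conserved are concentrated, and 2 arms, which are richer in repeats and recombine more. Chromosome V is known for its large families of chemoreceptor genes. The peaks were not assigned to genes, because no annotation of the files' build was used here, and no sequence of that build was used either.

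Members were thinly spread on V. The span of V, taken to the highest peak end in any list, was 20.9 Mb, which is 25.3% of the summed span of the 5 autosomes, and V held 15.8% of their supported peaks. The density on V was 41.8 members per Mb, against 75.6 per Mb on I to IV together. The order was the same in all of the lists, with V the sparsest and IV the next. Replicate 1 had 28.9 peaks per Mb on V and 41.3 on IV, and replicate 2 had 47.4 on V and 61.0 on IV. The density on V relative to I to IV was thus 0.560 in replicate 1 and 0.624 in replicate 2, and 0.553 among members. Members on V covered 685 kb in all, or 3.28% of the span, compared with 4.34% on IV and 5.75% on I to IV together. No test was made of V against the other autosomes, since 1 chromosome against 4 cannot give an exact p below 0.2, and peaks of one list are not replicates. For the same reason nothing here is called particular to V.

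The share of peaks found in both replicates was the lowest on V, and its interval overlapped those of I, III and IV but not that of II. Of the series-wide peaks on V, 48.1% were supported by both replicates (Wilson 95% interval 45.8 to 50.4), against 49.0% on IV (46.9 to 51.2), 52.8% on II (50.7 to 54.9) and 50.8% on I to IV together (49.7 to 51.8). Replicate 2 alone had a peak at 431 further V peaks (23.8%) and replicate 1 alone at 213 (11.8%), while 296 (16.3%) had one in neither. All such intervals cover counting error only, and peaks near each other share signal. Support was highest among peaks with a high score from the authors: when the whole list was divided by score into 5 classes of about equal size, the shares of V peaks that were members were 30.6%, 25.4%, 34.2%, 62.1% and 91.8% from the lowest class to the highest. On I to IV the lowest and the highest class had 34.0% and 90.7%. Of the 872 members, 781 (89.6%) were wholly inside a peak of each replicate. Members had to overlap such peaks by the rule, and the replicate peaks were wider. The median width on V was 1734 bp in the replicate 1 list, 1256 bp in the replicate 2 list and 560 bp among members. At the limit of the rule, the member from 8023259 to 8023543 shared 11 bp with the replicate peak it met least. The V peak from 20461998 to 20462681, which met replicate 1 only, was not a member although the nearest replicate 2 peak began or ended 1 bp away.

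Several members often belonged to the same replicate peak. The 872 members fell into 478 regions when those that overlapped a common replicate peak were joined, or 1.82 members per region, and the other autosomes had between 1.80 and 1.95. A single member made up 283 of these regions (59.2%), and 22 regions held 5 members or more. The region with most members ran from 19995525 to 20002136, where 10 members lay within 1 peak of each replicate. Joined regions were also sparsest on V, with 22.9 per Mb against 31.4 on IV and 40.3 on I to IV together.

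The outer segments of V were sparser than its central segment, and the size of that difference depended on the replicate. The outer segments are the first and the last 25% of the span, the central segment is the 50% between them, and peaks were placed by their midpoint. The left outer segment held 165 members (31.6 per Mb) and the right one 172 (33.0 per Mb). The central segment held 256 to the left of the middle (49.1 per Mb) and 279 to the right (53.5 per Mb). Both outer segments were thus below both sides of the central one. The outer to central ratio of densities was 0.630 among members and 0.589 in the replicate 1 list (21.5 and 36.4 peaks per Mb). In the replicate 2 list it was 0.870, with 44.1 peaks per Mb in the outer segments and 50.7 in the central segment. The SD of the ratio between the 2 replicate lists was 0.198, which is larger than the distance of the replicate 2 ratio from 1. In base pairs covered by members the ratio was 0.812, closer to even than in numbers. By that measure IV was lower than V, at 0.755, and I, II and III were higher (0.830 to 1.14).

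**Figure D1:**
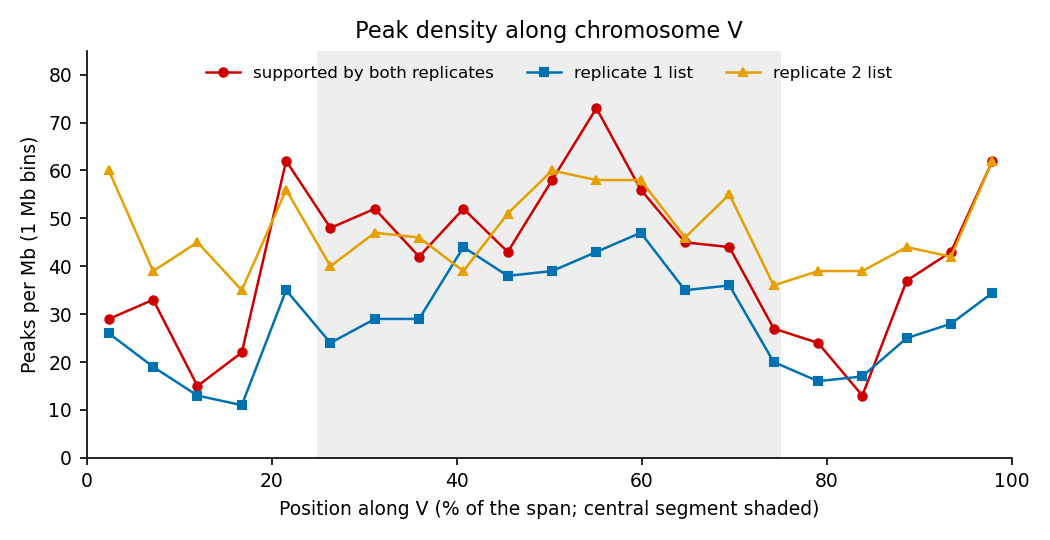
Peaks per Mb in 1 Mb bins along V (percent of the span, with the central segment shaded) for members, the replicate 1 list and the replicate 2 list. Members and replicate 1 fall to under 25 per Mb in a belt on either side, while replicate 2 stays between 35 and 62 per Mb throughout.

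The other autosomes also had fewer supported peaks in the outer segments, with ratios of 0.771 on I, 0.940 on II, 0.728 on III and 0.779 on IV. V was the lowest of the 5 among supported peaks and in the replicate 1 list, where the others lay between 0.733 and 0.804. In the replicate 2 list III was lower than V, at 0.851, and II and IV were above 1. Among all series-wide peaks, supported or not, V had a ratio of 0.851 and the others had 1.00 to 1.11. The central segment of V was itself sparse: its 51.3 members per Mb were close to the 50.7 of the outer segments of IV and below the outer segments of I, II and III (71.9 to 77.2).

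**Figure D2:**
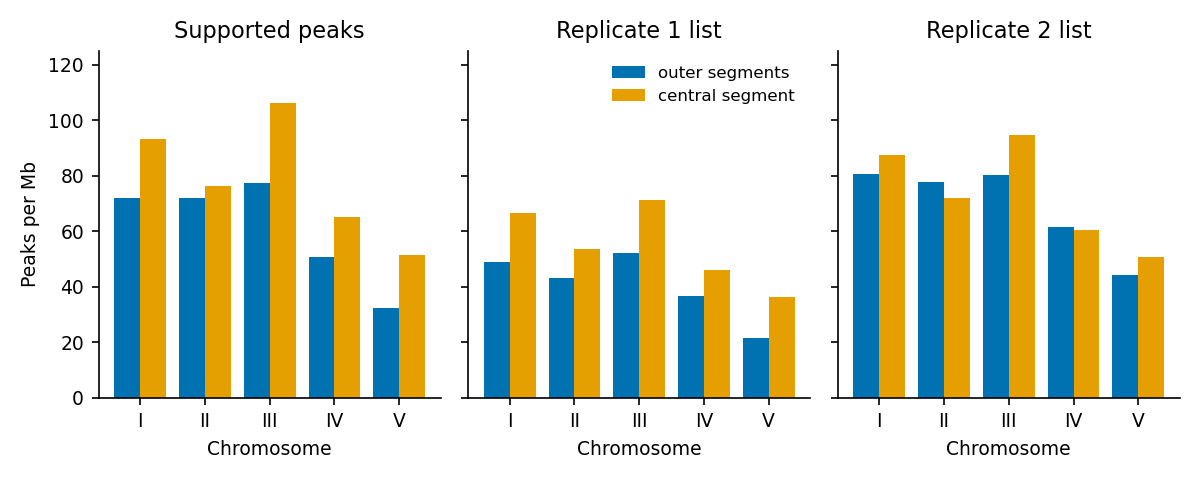
Peaks per Mb in the outer segments and the central segment of each autosome, for supported peaks and for each replicate list. In every panel V has the lowest outer bar and the lowest central bar. Its ratio of outer to central density is the lowest of the autosomes among supported peaks and in replicate 1 (0.630 and 0.589), but not in replicate 2 (0.870).

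The replicates differed most in the outer segments. There, replicate 2 had 460 peaks and replicate 1 had 224, or 2.05 replicate 2 peaks for each replicate 1 peak, whereas in the central segment there were 1.39. The outer value was 1.54 to 1.81 on I to IV, and the central value 1.32 to 1.35. The share of outer replicate 2 peaks on V that met a replicate 1 peak was 43.7% (Wilson 95% interval 39.2 to 48.3), against 65.4% in the central segment (61.3 to 69.3). The intervals of outer segments and central segment did not overlap. On I to IV the outer share was 50.2% to 54.5%, and the interval for V overlapped that for IV (46.0 to 54.4). The reverse share hardly differed, since 81.3% of outer replicate 1 peaks on V met a replicate 2 peak (75.6 to 85.8) and 83.4% of central ones (79.4 to 86.8). The outer replicate 2 peaks that met no replicate 1 peak numbered 259 and had a median score of 185, while the 201 that met one had a median of 763. The outer replicate 2 peaks without a partner thus had lower scores than those with one, and the same held elsewhere. In the central segment of V the medians without and with a partner were 173 and 879, and on I to IV together 180 and 829.

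**Figure D3:**
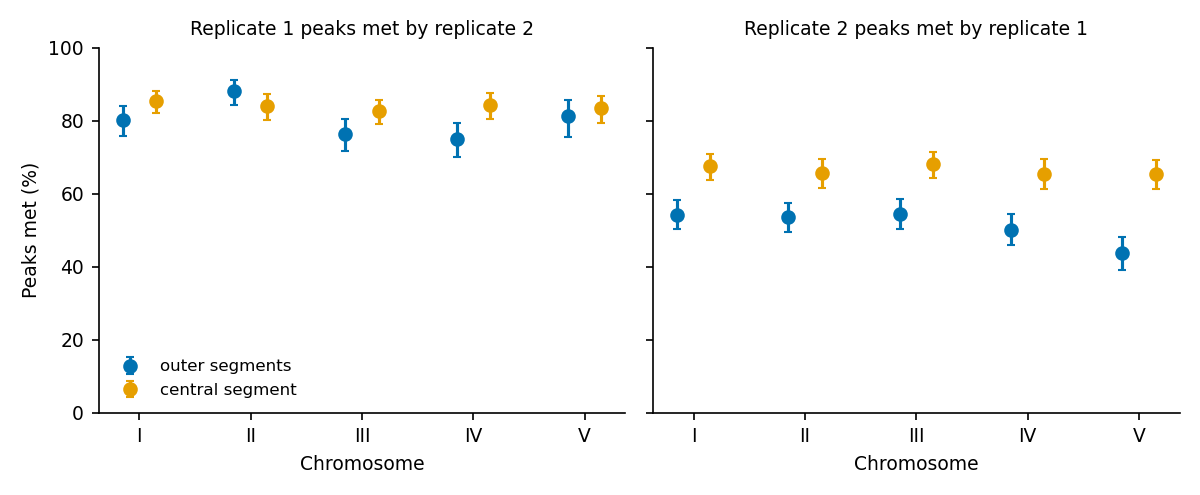
Share of replicate 1 peaks that met a replicate 2 peak and the reverse, in the outer segments and the central segment of each autosome, with Wilson 95% intervals. For replicate 2 the outer segments lie below the central segment on all 5 autosomes, and V has the lowest outer share, at 43.7%.

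The thinnest coverage lay in a belt on each side, and the tips of the chromosome were denser than the belts. These belts were chosen after the counts of 1 Mb bins were seen and are given as a description. From 2 to 4 Mb there were 18.5 members per Mb, with 12.0 replicate 1 peaks and 40.0 replicate 2 peaks per Mb. From 15 to 18 Mb there were 21.3 members per Mb, with 17.7 replicate 1 peaks and 38.0 replicate 2 peaks. This right belt begins inside the central segment, which ends at 15.7 Mb, and 26 of the 27 members from 15 to 16 Mb are central. Between the belts, from 4 to 15 Mb, the density was 52.3 members per Mb and no bin held fewer than 42. Outside them, the left end from 0 to 2 Mb had 31.0 members per Mb and the right end beyond 18 Mb had 46.7. Bins of V ran from 13 to 73 members, a coefficient of variation of 38.1%. It was 36.2% in replicate 1, with 11 to 47 peaks, and 17.8% in replicate 2, with 35 to 60. Of the 20 bins with the fewest supported peaks on the 5 autosomes, 14 were on V, 4 on IV and 1 each on I and II. The ranking covered 21 bins of V, 17 of IV, 15 each of I and II and 14 of III. End bins shorter than 0.5 Mb were left out of this ranking.

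The bin from 2 to 3 Mb held 15 members, and several of them were among the highest-scored or widest on V. Their scores ran from 4.26 to 102.19 with a median of 27.4, above the median of 23.4 for all members of V. The widest member of the chromosome lay here, from 2132327 to 2140044, with a width of 7718 bp and a score of 71.50. With its left neighbours from 2126912 to 2129298 (score 25.89) and from 2129526 to 2132234 (score 102.19), it formed a block of 13133 bp with gaps under 1000 bp. That block made up 65.4% of the base pairs covered by members in the bin, and replicate 1 listed it within 1 peak of 14249 bp. All 3 met peaks with a score of 3100 in both replicates, a value repeated in 58 of the 604 replicate 1 peaks on V and in 154 of the 989 replicate 2 peaks. The lone member from 2634732 to 2635443 was also high, with a score of 101.49, a replicate 1 score of 3074.25 and a replicate 2 score of 3100. A cluster from 2694306 to 2699432 held 3 members with scores of 8.88, 14.75 and 79.08, and another followed from 2706766 to 2707369 with 27.69. The other members of this bin were 346 to 662 bp wide and lay alone or in a pair, and none met a replicate peak of score 3100. They began at 2060593 (score 41.90), 2196760 (24.45), 2601798 (23.67), 2646947 (34.65), 2850915 (4.26), 2851888 (17.23) and 2875388 (27.38). Among these 7, replicate 1 scores ran from 53.11 at 2601798 to 530.97 at 2060593. Their replicate 2 scores ran from 60.33 to 265.65, at 2601798 and 2646947.

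The bin from 17 to 18 Mb held 13 members, the fewest of any bin of the autosomes, and most of them lay at one end of it. From 17935828 to 17977413, a stretch at the right end of the bin, there were 8 members. The highest, from 17935828 to 17936685, had a score of 88.99 and met a peak of score 3100 in each replicate, and its neighbours at 17937638 and 17939102 had scores of 14.75 and 2.13. Further on, the members beginning at 17967396 and 17975993 were 1699 and 1421 bp wide and scored 49.59 and 31.99. The remaining 3 of the stretch began at 17951057, 17952122 and 17954964 and scored 9.93, 9.17 and 15.15. Before this stretch, the bin had only the members beginning at 17518982 (score 25.79), 17644971 (10.73), 17845115 (17.53), 17879414 (5.57) and 17879913 (26.89). Their replicate 1 scores ran from 57.07 to 202.46 and their replicate 2 scores from 223.47 to 671.64. The median score of the bin was 15.2, below that of V as a whole.

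Neither bin was empty in the replicate lists. From 2 to 3 Mb, replicate 1 had 13 peaks and replicate 2 had 45, of which 11 and 13 met a peak of the other replicate. From 17 to 18 Mb the lists had 17 and 39 peaks, of which 10 and 10 met the other. The lowest replicate 1 count on V was 11, from 3 to 4 Mb, and the next lowest was the 13 from 2 to 3 Mb. In replicate 2 the 45 peaks from 2 to 3 Mb were close to the median of 46 over the bins of V. Of the 62 series-wide peaks from 17 to 18 Mb, 26 met replicate 2 only, 13 replicate 1 only and 10 neither. The densest bin of V, from 11 to 12 Mb, held 73 members with a median score of 16.8, between those of the 2 sparse bins.

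Long stretches without members took up much of V. There were 56 stretches of 100 kb or more without members, with those at the ends of the span counted. They added up to 9.93 Mb, or 47.6% of the span. On the other autosomes the share was 10.8% on I, 22.2% on II, 12.9% on III and 27.6% on IV. The count on V was 35 in the outer segments and 21 in the central segment, equal to 65.3% and 29.9% of their length. On each of I to IV the outer share was also the higher, at 15.2% to 39.2% against 4.57% to 15.9% in the central segment. In replicate 1 taken alone, stretches of that length covered 37.2% of V, and in replicate 2 they covered 21.2%. Both were above the other autosomes in the same list, which had 6.98% to 19.0% in replicate 1 and 3.95% to 9.57% in replicate 2.

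The longest stretch ran from 16958704 to 17518981, across the boundary of the bins on either side of 17 Mb, and measured 560 kb. It held 5 replicate 1 peaks, 8 replicate 2 peaks and 11 series-wide peaks, none of which had the support of both replicates. The next, 490 kb from 18115067 to 18604873, held no replicate 1 peak and 5 replicate 2 peaks. The third, 405 kb from 2197244 to 2601797 in the bin from 2 to 3 Mb, had no replicate 1 peak but 13 replicate 2 peaks with scores up to 3100. Of the 10 longest, 8 were in the outer segments, against 7 to 9 of the 10 longest on each of I to IV. On V, 5 of the 10 lay free of replicate 1 peaks, but all 10 held replicate 2 peaks and series-wide peaks. Next in length came 362 kb from 360333 to 722256, 319 kb from 2875770 to 3194906, 288 kb from 19644580 to 19933069 and 286 kb from 3777733 to 4063588. The stretch from 2875770 to 3194906 had 18 replicate 2 peaks, the most of the 10, and 1 replicate 1 peak. The last 3 were 269 kb from 6788792 to 7058035, 264 kb from 15760465 to 16024065 and 226 kb from 5275947 to 5502442. That from 15760465 to 16024065 came nearest to being empty, with 2 replicate 2 peaks of scores up to 120.61 and 1 series-wide peak of score 6.13.

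Counting peaks of any list, the empty part of V was much smaller but still lay on the outside. Stretches of 100 kb or more with no peak in any of the 3 lists numbered 15 on V and covered 9.0% of the span. Of these, 14 were in the outer segments. The other autosomes had 3 to 7 such stretches, covering 2.17% to 4.79%. Most of those were in the outer segments as well: 3 of 4 on I, 2 of 3 on II, all 4 on III and 5 of 7 on IV. The longest on V were 171 kb from 3259256 to 3430190, 145 kb from 17070470 to 17215236 and 138 kb from 3446205 to 3584648, all within the sparse belts.

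Measured against its own density, V was closer to the other autosomes. The mean spacing of members, the span divided by their number, was 23.9 kb on V and 10.9 to 17.3 kb on the others. Stretches at least 5 mean spacings long, a limit chosen after seeing the data, covered 38.2% of V and 29.5% to 38.3% of the others. Those at least 10 mean spacings long covered 15.5% of V and 6.43% to 11.4% of the others. The longest was 23.4 spacings on V and 24.2 on IV. In each replicate list, scaled by the mean spacing of that list, V had the highest share at 5 spacings. It was 18.1% against 9.52% to 15.4% in replicate 1, and 19.7% against 15.1% to 16.7% in replicate 2. Among all series-wide peaks IV was above V, at 35.5% and 34.7%. The median distance between neighbouring members was 2041 bp, within the range of 1423 to 2237 bp on I to IV. The shares of distances under 1000 bp and under 5 kb were the lowest of the autosomes on V, at 41.0% and 58.9%. On I to IV they were 41.2% to 44.5% and 61.0% to 66.1%. Members less than 5 kb apart formed 359 groups on V, or 17.2 per Mb, against 22.6 to 31.4 on the other autosomes. Single members made up 46.8% of these groups on V and 39.9% to 44.8% on the others. The largest group on V had 10 members, against 17 to 20 elsewhere.

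**Figure D4:**
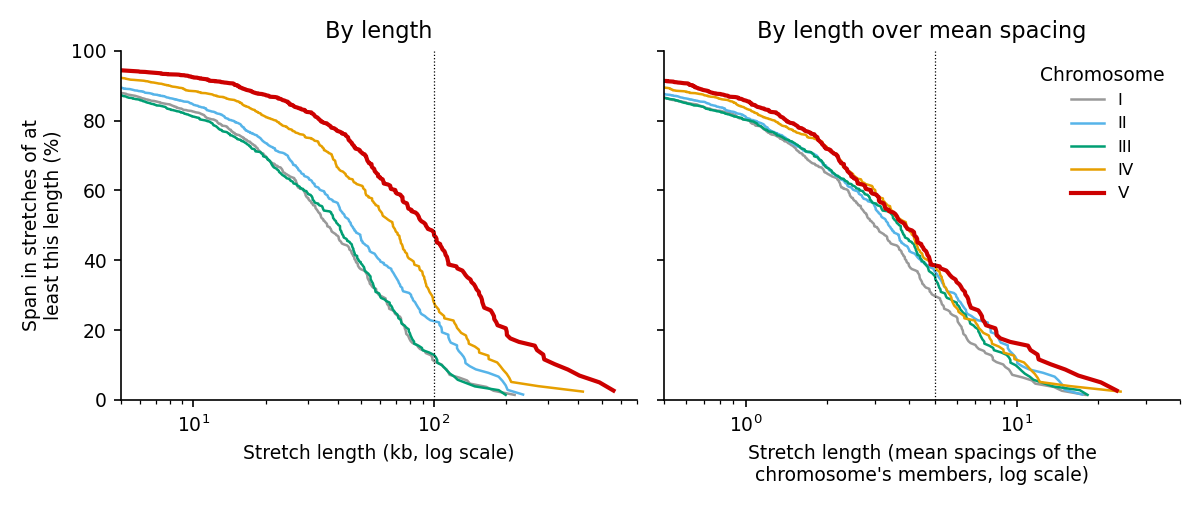
Share of each autosome's span in member-free stretches of at least a given length, by length in kb (left, dotted line at 100 kb) and by length in mean spacings of that chromosome's members (right, dotted line at 5). V lies above the others on the left (47.6% at 100 kb), and at 5 spacings on the right V (38.2%) is close to IV (38.3%), with I lowest (29.5%).

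Members of V differed little in width and score from those of the other autosomes. The median width was 560 bp (interquartile range 389 to 876) on V and 572 bp (375 to 896) on I to IV. The median score was 23.4 (7.26 to 44.0) on V and 22.1 (7.35 to 44.8) on I to IV, and 51.8% of the supported peaks on I to IV scored below the V median. Of the V members, 168 (19.3%, Wilson 95% interval 16.8 to 22.0) were wider than 1000 bp, and 47 (5.39%) were wider than 2000 bp, against 20.6% and 4.71% on I to IV. Across members of V, width and score had a Spearman rho of 0.584 (872 members of 1 list, many of them in the same region), and on I to IV the rho was 0.626. Across the 478 joined regions, the highest member score had a rho of 0.674 with the replicate 1 score and 0.681 with the replicate 2 score. The 2 replicate scores had a rho of 0.561 with each other. Over single members the series-wide score ranked less like the replicate scores, with a rho of 0.159 for replicate 1 and 0.173 for replicate 2. Members in 1 replicate peak share its score. The score has no stated unit, so it ranks peaks within a list only.

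Outer members were wider but lower-scored than central ones. Their median width was 622 bp against 528 bp, and 27.0% of them were wider than 1000 bp (22.5 to 32.0) compared with 14.4% of central members (11.7 to 17.6), intervals that did not overlap. Both outer segments showed it, with 25.5% on the left and 28.5% on the right, and the left and right sides of the central segment had 17.97% and 11.1%. The other autosomes had the same direction, at 21.2% to 24.8% in the outer segments and 16.6% to 19.5% in the centre, with overlapping intervals on each of them. The replicate peaks that members met were also wider in the outer segments of V, with medians of 1934 against 1777 bp in replicate 1 and 1685 against 1528 bp in replicate 2. On each of I to IV the replicate 1 peaks that members met were wider in the outer segments too. For replicate 2 this held on II only (1838 against 1702 bp), and I, III and IV had the opposite direction. Over all replicate 1 peaks on V the outer median was again the larger, at 1814 against 1659 bp. Over all replicate 2 peaks on V the direction was the opposite, at 1169 bp in the outer segments and 1337 bp in the centre. It was also the opposite over all series-wide peaks on V, supported or not, with medians of 356 and 397 bp, although 12.4% of outer peaks and 8.38% of central ones were wider than 1000 bp. The median score of members was 18.5 in the outer segments and 26.1 in the central segment, while the quartiles overlapped widely (6.42 to 41.9 and 8.32 to 45.9). On I to IV the outer median was lower too, at 17.7 to 20.3 against 22.1 to 26.9. The scores of the replicate peaks that V members met were a little lower outside, with medians of 539 and 594 in replicate 1 and 816 and 925 in replicate 2. IV had the same direction in both lists, whereas on I and II the outer medians were the higher in both. On III the outer median was higher in replicate 1 (635 against 546) and nearly equal in replicate 2 (761 against 762).

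**Figure D5:**
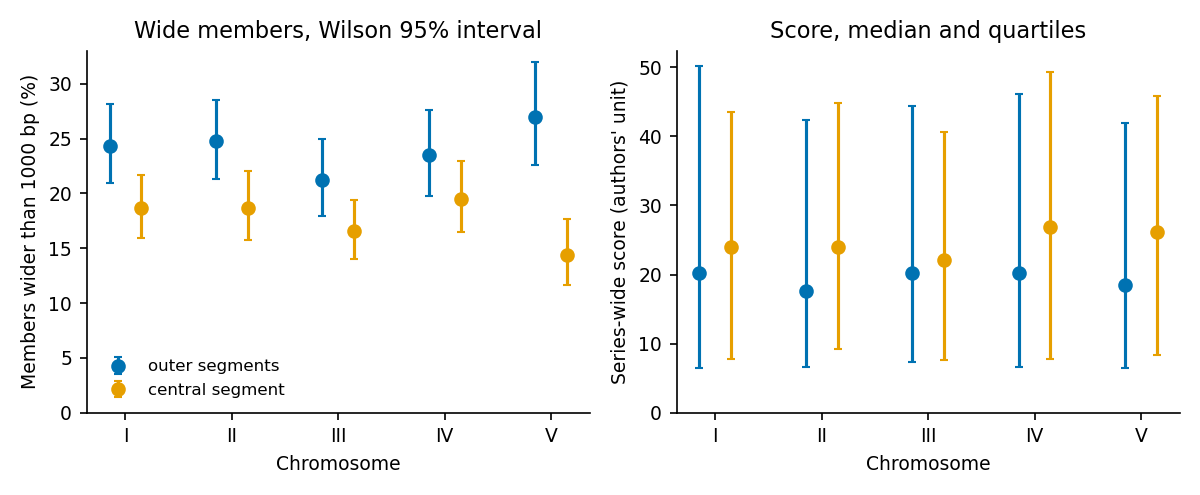
Left, share of supported peaks wider than 1000 bp with Wilson 95% intervals; right, median series-wide score with quartiles as bars, in the outer segments and the central segment of each autosome. On V the outer share of wide members is 27.0% against 14.4% in the centre, and the score quartiles overlap.

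The highest scores on V were found in both the outer and the central segments. The outer segments hold 38.6% of all members. They held 6 of the 10 members with the highest scores and 38 of the 100 with the highest scores. The first, from 14092371 to 14092796, scored 120.44 at a width of 426 bp, and met a replicate 1 peak of 2940.27 and a replicate 2 peak of 3100. The second, from 20698653 to 20699131, scored 117.87 at 479 bp. Members from 7062442 to 7064095 and from 8039094 to 8040561 shared a score of 114.91 and were 1654 and 1468 bp wide. The next 2 were 461 bp from 8228618 to 8229078 (score 113.54) and 813 bp from 18101905 to 18102717 (109.71). The remaining 4 were the members of the 2 to 3 Mb bin at 2129526 and 2634732, that from 20088188 to 20089046 (score 100.69) and that from 16366791 to 16368132 (99.96). All 10 met a replicate 2 peak of score 3100, and 4 met a replicate 1 peak of that score. The lowest replicate 1 score among them was 756.94, at 18101905.

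The 5 widest members were a different set. After the 7718 bp member in the 2 to 3 Mb bin came 5836 bp from 6422699 to 6428534 (score 87.57), 5366 bp from 9339785 to 9345150 (96.90), 5158 bp from 6220662 to 6225819 (66.01) and 4979 bp from 723048 to 728026 (78.41). The last of these lies just to the right of the 362 kb stretch that begins at 360333, with 1 member of 710 bp between them. All 5 met peaks of score 3100 in both replicates, and none was among the 10 highest scores. Of the 50 widest members, 31 were in the outer segments, which hold 337 of the 872 members.

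Some strong V peaks fell outside the set of members. The unsupported series-wide peaks with the highest scores, given as a description, lay from 14094446 to 14094796 and from 14096201 to 14096516, each scoring 67.45, close to the highest-scored member. Both met a replicate 2 peak of 3100 and no replicate 1 peak. The next, from 11916327 to 11917346 (score 62.19), met neither replicate. In the other direction, 6 of 604 replicate 1 peaks and 177 of 989 replicate 2 peaks on V met no series-wide peak. The strongest of these were V 264542 to 267729 in replicate 1, at 1484.48, and V 1064942 to 1067549 in replicate 2, at 760.74. Of the 177, 113 were in the outer segments. There, 75.4% of replicate 2 peaks met a series-wide peak (71.3 to 79.1), against 87.9% in the central segment (84.8 to 90.4). The outer share was the lower on each of I to IV as well, at 80.2% to 84.7% against 85.1% to 88.1%.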

How the data were processed

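Positions and scores of peaks from 2 ChIP samples and from 1 list of the whole series were analysed, and the 2 input samples have no file of their own here. The tool BWA and the build ce10 are named, without version or role, per the submitters' processing notes. Positions refer to WormBase WS220 per the file headers. Each file's source column names MACS for the replicates and MACS v2 for the series as a whole, so these lists differ in more than the replicate. The sources used here do not give cut-offs, the control or any pooling. The deposited score of each peak has no stated unit and was used only within a list. Depth is unknown.

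Overlap was computed from 1-based intervals, at least 1 bp. The span of a chromosome is the highest peak end in any list, and peaks were placed by midpoint in segments (25%, 50% and 25% of the span) and 1 Mb bins. Wilson 95% intervals are given for shares. No test was run, since both ChIP samples form 1 group. The peaks named are the 10 members with the highest score, the 5 widest, the 10 longest stretches and all members of the bins from 2 to 3 Mb and 17 to 18 Mb, and other regions were chosen after their values were seen. The members and lists were chosen with earlier results of these data known. The steps were tested on simulated lists. The name jhdm-1 is from the WBcel235 gene table of RefSeq. The work was done in Python 3.11.15 with pandas 2.3.3, numpy 2.4.6, matplotlib 3.10.9 and scipy 1.17.1.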

Additional observations from a re-analysis of the deposited data

How the results depend on the processing

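The density of V relative to I to IV, 0.553, stayed between 0.506 and 0.624 in 13 alternatives, of which 11 moved it by less than the SD between replicates. It was 0.624 in the replicate 2 list and 0.506 without chromosome IV, an alternative chosen after seeing the data. The outer to central ratio, 0.630, stayed below 1 in all 12 alternatives, and moved to 0.870 in the replicate 2 list and to 0.851 among all series-wide peaks. Without the bins from 2 to 3 Mb and 17 to 18 Mb it was 0.715. Support by both replicates, 48.1%, rose to 69.4% when only peaks scored at least the median were kept. When 1 replicate was left out it was 59.9% without replicate 2 and 71.9% without replicate 1, since 1 condition fewer was asked.

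The share of V in long stretches, 47.6%, depended most on the setting. It was 21.2% in the replicate 2 list, 16.0% among all series-wide peaks, 70.8% for stretches of 50 kb or more and 19.6% for 200 kb or more. Leaving out replicate 1 or replicate 2 gave 29.7% and 37.9%. With no peak in any list, an alternative chosen after seeing the data, it was 9.0%. The median width of V relative to I to IV, 0.979, was 0.936 in the replicate 2 list. The share of I to IV peaks scored below the V median, 51.8%, fell to 47.7% in the replicate 2 list, 47.6% among all series-wide peaks, 48.6% and 49.7% without replicate 1 and replicate 2, and 49.7% when only peaks scored at least the median were kept, so in these 5 the V median lay below the I to IV median. The cause of the other changes was not tested. No paired analysis was possible because the input samples, the only other group, have no values here. Depth is unknown, so a stretch without peaks cannot be told apart from one with too few reads.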
